A study of Mus musculus with 15 samples.

Results

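The immediate early response genes followed here were Egr1, Egr2, Fos, Fosb, Jun, Junb, Ier2 and Atf3. These 8 genes were taken by symbol from the 55228 genes that the expression tables list. The set was chosen by values of these same data, since Egr1 had been seen to be lower at 48 h and higher at 72 h of Smarcb1 knockdown (kd). The values of the 48 h and 72 h comparisons are therefore a description of the members and carry no p-value.

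RNA was sequenced in 15 libraries of 81K1 cells, 3 per group. 81K1 is a mouse embryonic stem cell (ESC) line made from OG2 and derived from 1 clone, K1. It carries in every group an shRNA against Smarcb1 at the Rosa26 locus, under a promoter that needs doxycycline. All cells grew on gelatine in medium with serum and leukaemia inhibitory factor. The knockdown groups received doxycycline at 1 µg per ml medium daily and were sampled at 48 h (48 h kd), 72 h (72 h kd) and 240 h (240 h kd). Untreated cells of the same line were sampled at 48 h (48 h ctrl) and 240 h (240 h ctrl). No untreated cells of 72 h are among the libraries, so 72 h kd was set against 48 h ctrl. Treated cells without the shRNA were not analysed here, so doxycycline and the knockdown cannot be told apart. The study reports no effect of doxycycline on growth of the parental OG2 line, but no RNA of treated OG2 cells is among the libraries. Nothing in the labels says whether the 3 libraries of a group came from separate cultures, so p-values measure the spread between these libraries, which may be technical.

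Immediate early genes are transcribed within minutes of a stimulus such as serum or a growth factor, without new protein synthesis. Signals through the ERK kinases reach ternary complex factors and serum response factor (SRF) at their promoters, and most of the products are short-lived transcription factors. FOS and JUN family proteins pair to form AP-1, EGR proteins bind GC-rich sites, and in ESC the ERK pathway is best known for driving the exit from naive pluripotency.

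Levels are given as FPKM, read counts scaled to gene length (per kilobase) and to the library total. In these files the length is the whole gene span with introns, and reads were counted without regard to strand. Library totals lay between 11074998 and 14515300 reads. Smarcb1, the targeted gene, had 0.503 to 0.820 FPKM in the 9 kd libraries and 3.31 to 3.93 FPKM in the 6 ctrl libraries, so every library was on the side its label gives. The ESC markers Pou5f1, Nanog, Sox2, Zfp42 and Esrrb summed to 587 to 757 FPKM per library, and 6 fibroblast markers to 0.525 to 1.58 FPKM. Mitochondrial reads made up 2.35% of library 2 of 48 h kd and 0.469% to 1.81% of the other 14 libraries. The lowest share, 0.469%, was that of library 3 of 240 h ctrl. By the chi-square per degree of freedom of reads between replicates, 2 libraries stood apart from their group. Library 2 of 48 h kd had 11.3 and 9.14 with its replicates, against 1.51 between those, and library 3 of 240 h ctrl had 8.89 and 5.02, against 2.23.

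The promoters of members with different patterns are shown first, as reference sequence only. RefSeq start sites on GRCm38.p6 were used for 6 of the 8 members. Ier2 had none listed, and Egr1 was left out of the search. The 250 bases before the start are printed 5′ to 3′ on the strand of the gene. Fos is shown because it was highest at 72 h, Jun because it was higher in 240 h kd than in 240 h ctrl, Junb because it had a different order of groups, and Egr2 because it was nearly silent. Capitals mark matches to 7 motifs searched on both strands. These were the CArG box bound by SRF, TGACGTCA of cyclic AMP response elements, TGANTCA of AP-1, TGACNTCA of ATF and JUN pairs, GCGTGGGCG of EGR proteins, TATAAA of the TATA box and CCGGAA of ETS factors. TGACGTCA is also a TGACNTCA match.
Fos (chr12:85473640-85473889, + strand): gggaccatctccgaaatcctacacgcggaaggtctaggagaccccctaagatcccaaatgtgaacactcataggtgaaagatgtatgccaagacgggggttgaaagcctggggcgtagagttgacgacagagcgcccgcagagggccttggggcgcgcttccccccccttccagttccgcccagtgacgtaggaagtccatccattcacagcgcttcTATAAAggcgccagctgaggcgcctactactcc
Jun (chr4:95052223-95052472, - strand): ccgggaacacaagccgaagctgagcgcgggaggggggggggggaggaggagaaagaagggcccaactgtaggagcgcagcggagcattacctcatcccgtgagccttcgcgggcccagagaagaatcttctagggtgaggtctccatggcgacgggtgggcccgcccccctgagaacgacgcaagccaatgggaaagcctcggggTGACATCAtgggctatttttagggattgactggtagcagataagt
Junb (chr8:84978749-84978998, - strand): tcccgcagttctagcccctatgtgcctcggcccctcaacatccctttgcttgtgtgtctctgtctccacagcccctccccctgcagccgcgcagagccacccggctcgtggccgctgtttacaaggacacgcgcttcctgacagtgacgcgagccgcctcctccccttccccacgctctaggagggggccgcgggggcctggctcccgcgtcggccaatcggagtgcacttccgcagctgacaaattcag
Egr2 (chr10:67537619-67537868, + strand, 1 of its 5 listed windows): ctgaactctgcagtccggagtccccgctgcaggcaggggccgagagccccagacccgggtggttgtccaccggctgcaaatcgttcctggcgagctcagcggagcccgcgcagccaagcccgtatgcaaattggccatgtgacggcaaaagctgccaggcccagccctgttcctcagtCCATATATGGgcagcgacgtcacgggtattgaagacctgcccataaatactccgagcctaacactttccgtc
The Fos window held a TATA box 33 to 28 bases before the start, a motif found in 12.4% of 32851 promoters. The Jun window held TGACATCA 45 to 38 bases before the start, and TGACNTCA was found in 7.49% of promoters. The Egr2 window held the CArG box CCATATATGG 72 to 63 bases before the start, and a CArG box was found in 1.47% of promoters. Of the other Egr2 windows, those from 67537620 and 67537680 overlap it and hold the same box, the window from 67537316 holds another CArG box and 3 CCGGAA matches, and the window from 67535249 has no match. The Junb window had no match, as had those of Atf3 and Fosb. TGACGTCA was found in 1.55% of promoters, TGANTCA in 6.75%, GCGTGGGCG in 0.536% and CCGGAA in 12%. A match of letters is not a binding site, and no match says only that the letters are not in this window.

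Levels per length ranged over the members from none to more than 100 FPKM. Ier2 had the highest level, with group means of 124 to 157 FPKM, followed by Junb with 15.2 to 20.7 FPKM. Egr1 (1.79 to 7.42 FPKM), Jun (2.62 to 4.36 FPKM) and Fos (0.740 to 2.62 FPKM) were lower. Fosb and Atf3 were below 0.2 FPKM in every library. Genes were tested where their mean over the libraries compared was at least 0.5 FPKM, which Egr1, Fos, Jun, Junb and Ier2 passed in each comparison. Fold changes are on the scale log2(FPKM + 0.1), which understates the change of low genes, and a gene was called at a limma adjusted p-value under 0.05 with an absolute log2 fold change above 0.58. Groups without overlap were common, with 39.4% of genes tested at 48 h, 64.7% in 72 h kd against 48 h ctrl, 53.8% in 72 h kd against 48 h kd, 50.2% at 240 h, 67.5% in 240 h kd against 72 h kd and 33.6% between the untreated groups, so the lack of overlap given for a member describes its libraries only.

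**Figure D1:**
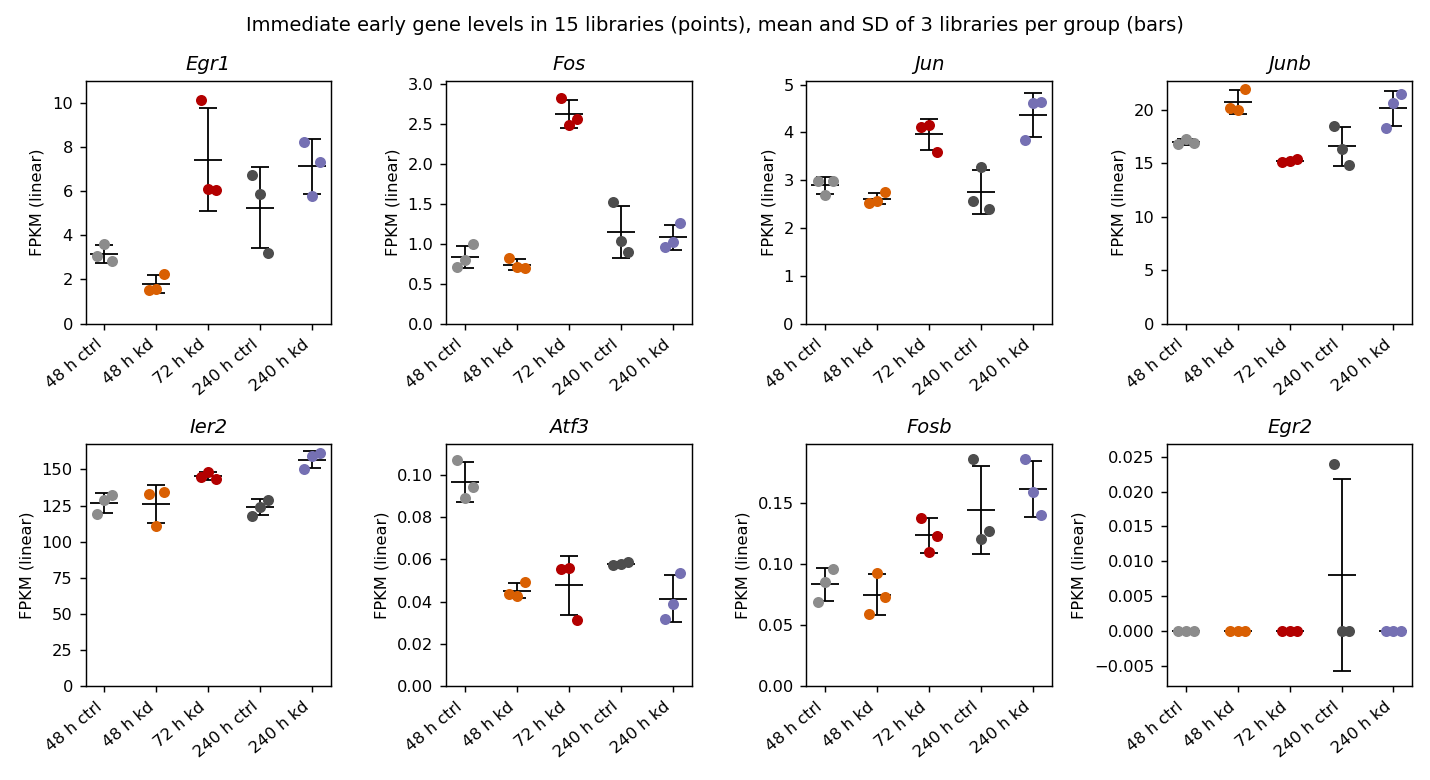
Level of each immediate early gene in FPKM on a linear axis, by group, with 1 panel per gene; points are the 3 libraries of a group, and the horizontal bar and whiskers are their mean and SD. Fos stood out at 72 h kd (2.49 to 2.82 FPKM), Jun was high in 72 h kd and 240 h kd, and Junb had its lowest mean in 72 h kd (15.2 FPKM).

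Egr1 (early growth response 1, chr18:34859823-34864984, + strand, mm10) encodes a zinc finger transcription factor induced through SRF and ERK. Its levels in the 3 libraries of 48 h ctrl were 3.06, 3.60 and 2.82 FPKM, and in 48 h kd 1.53, 1.57 and 2.26 FPKM. The 72 h kd libraries had 10.1, 6.10 and 6.03 FPKM. In 240 h ctrl they were 6.71, 5.85 and 3.18 FPKM, and in 240 h kd 8.23, 5.77 and 7.33 FPKM. All 48 h kd libraries lay below all others, all 72 h kd libraries lay above both 48 h groups, and both 240 h groups overlapped each other. In order of the group means, 48 h kd (1.79 ± 0.408 FPKM, SD, n = 3) was below 48 h ctrl (3.16 ± 0.397). The neighbours 48 h ctrl and 240 h ctrl (5.25 ± 1.84) overlapped, as did 240 h ctrl and 240 h kd (7.11 ± 1.25), and 240 h kd and 72 h kd (7.42 ± 2.35).

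The difference that chose Egr1 was a log2 fold change of -0.81 (SE 0.17) at 48 h, and 1.17 (SE 0.22) in 72 h kd against 48 h ctrl. Between 48 h kd and 72 h kd the difference was 1.97. Against 240 h ctrl in place of 48 h ctrl, the 72 h kd value was 0.52 and did not pass. Library 1 of 72 h kd had 10.1 FPKM, and without it the 72 h value was 0.92. The 48 h call was lost without any one of the libraries except library 3 of 48 h kd, with values of -0.88 to -0.71, and without library 2 of 48 h kd, which had the most mitochondrial reads, it was -0.73. The part of mitochondrial reads in this difference was not tested.

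Egr2 (chr10:67535475-67542188, + strand), a relative of Egr1 known from hindbrain and myelinating Schwann cells, was listed at 0 in 14 libraries and had 2 reads in library 1 of 240 h ctrl. A count of 0 allows up to 3 reads, or 0.0308 to 0.0403 FPKM depending on the library, for counting error only. No difference in Egr2 was detectable at this depth.

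Fos (chr12:85473890-85477273, + strand) encodes the leucine zipper protein that pairs with JUN proteins in AP-1. It had 0.711, 0.800 and 0.992 FPKM in 48 h ctrl and 0.821, 0.706 and 0.694 FPKM in 48 h kd. At 72 h kd the values were 2.82, 2.49 and 2.56 FPKM. It had 1.52, 1.03 and 0.900 FPKM in 240 h ctrl and 0.964, 1.02 and 1.26 FPKM in 240 h kd. The 3 libraries of 72 h kd lay above the other 12, and all other neighbouring groups in the order of means overlapped. The 72 h kd mean was 2.62 ± 0.173 FPKM (SD, n = 3), from 104 to 122 reads per library, while the other means were 0.740 to 1.15 FPKM from 26 to 64 reads.

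The log2 fold change of Fos was -0.15 (SE 0.13) at 48 h and 1.55 (SE 0.12) in 72 h kd against 48 h ctrl. It was 1.70 between 48 h kd and 72 h kd. With 240 h ctrl as the control, the 72 h kd value was 1.15 and still passed. In every alternative in which Fos was tested, the 72 h kd value lay between 0.98 and 1.67 and passed. The choice of members used this comparison, so nothing is read from that passing. From 72 h kd to 240 h kd, which share the 72 h libraries with the comparison above, Fos fell by 1.21 (SE 0.10).

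Fosb (chr7:19302696-19310051, - strand), the FOS relative best known from neurons, had 5 to 18 reads per library and 0.0590 to 0.186 FPKM. Its group means were 0.0751 FPKM in 48 h kd, 0.0838 FPKM in 48 h ctrl, 0.124 FPKM in 72 h kd, 0.145 FPKM in 240 h ctrl and 0.162 FPKM in 240 h kd. The 72 h kd libraries lay above both 48 h groups, and both 240 h groups overlapped. It was below the minimum level and has no test on this scale.

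Jun (chr4:95049034-95052222, - strand) encodes the main partner of FOS and also binds as a pair with ATF proteins. It had 2.99, 2.69 and 2.99 FPKM in 48 h ctrl and 2.53, 2.57 and 2.75 FPKM in 48 h kd. Its 72 h kd levels were 4.12, 4.16 and 3.59 FPKM. In 240 h ctrl it had 2.57, 3.28 and 2.40 FPKM, and in 240 h kd 3.83, 4.62 and 4.63 FPKM. The libraries of 72 h kd and 240 h kd lay above all libraries of the other 3 groups, and these 2 groups overlapped each other. Its antisense gene Junos shares 689 bases with it and had 22 to 67 reads per library, against 93 to 214 reads for Jun, and without strand these reads cannot be told apart.

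The log2 fold change of Jun was -0.14 (SE 0.06) at 48 h and 0.44 (SE 0.07) in 72 h kd against 48 h ctrl, where it stayed below the fold threshold. Between 48 h kd and 72 h kd it was 0.58, which did not pass on log2 FPKM, while it passed with a pseudocount of 0.01 (0.59), after rescaling to TPM (0.66), with voom (0.59) and without library 3 of 48 h kd (0.61) or of 72 h kd (0.64). In 240 h kd against 240 h ctrl, whose 6 libraries are not in the comparisons that the choice of members names, Jun rose by 0.65 (SE 0.14, 95% confidence interval 0.31 to 0.99, limma adjusted p = 0.0161), from 2.75 ± 0.469 to 4.36 ± 0.459 FPKM (SD, n = 3). All 3 kd libraries lay above all 3 ctrl libraries, which was so, in either direction, for 50.2% of genes tested. The members were chosen with earlier results of all 15 libraries known, so this p-value is not independent of that choice. With a pseudocount of 1 the value was 0.52, below the fold threshold. The call was also lost without library 1 (0.61) or 3 (0.56) of 240 h ctrl and without library 2 or 3 of 240 h kd (0.61 each), where the adjusted p-values of limma were 0.04 to 0.0577. Library 3 of 240 h ctrl, which stood apart from its replicates, had the lowest Jun and Egr1 of its group.

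Junb (chr8:84974484-84978718, - strand) encodes a JUN relative that can act in place of JUN or oppose it. It had 16.8, 17.3 and 16.9 FPKM in 48 h ctrl and 20.2, 20.0 and 22.0 FPKM in 48 h kd. At 72 h kd the levels were 15.1, 15.2 and 15.4 FPKM. In 240 h ctrl it had 18.5, 16.4 and 14.9 FPKM, and in 240 h kd 18.3, 20.7 and 21.5 FPKM. The 48 h kd libraries were all above, and the 72 h kd libraries all below, those of 48 h ctrl, while both 240 h groups overlapped. Its 3′ end overlaps Prdx2 on the opposite strand by 351 bases, and Prdx2 had 2313 to 3297 reads per library against 795 to 1273 for Junb. Prdx2 itself had log2 fold changes of -0.11, -0.05 and 0.01 at 48 h, 72 h and 240 h of knockdown, none called.

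The log2 fold change of Junb was 0.28 (SE 0.05) at 48 h and -0.16 (SE 0.02) in 72 h kd against 48 h ctrl. Between 48 h kd and 72 h kd it was -0.44, and none of these values reached the fold threshold. At 240 h it was 0.28 (95% confidence interval 0.04 to 0.52, limma adjusted p = 0.0779).

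Ier2 (chr8:84661331-84662854, - strand) encodes a nuclear protein of the IER family. It had 119, 129 and 132 FPKM in 48 h ctrl and 133, 111 and 134 FPKM in 48 h kd. The levels at 72 h kd were 145, 148 and 143 FPKM. In 240 h ctrl it had 118, 124 and 129 FPKM, and in 240 h kd 150, 159 and 161 FPKM. The 72 h kd libraries lay above those of 48 h kd, 48 h ctrl and 240 h ctrl, and the 240 h kd libraries above all others. Read counts were 1979 to 3518 per library. The log2 fold change was -0.01 at 48 h and 0.20 in 72 h kd against 48 h ctrl. At 240 h Ier2 was higher by 0.34 (SE 0.05, 95% confidence interval 0.22 to 0.46, limma adjusted p = 0.00439), a difference larger than the spread of the libraries but below the fold threshold.

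Atf3 (chr1:191170296-191218039, - strand) encodes a stress-induced ATF protein that pairs with JUN proteins. Its span is 47744 bases, of which 2154 are exonic, so its FPKM understate it against compact genes. It had 0.107, 0.0888 and 0.0943 FPKM in 48 h ctrl and 0.0436, 0.0429 and 0.0492 FPKM in 48 h kd. The 72 h kd libraries had 0.0556, 0.0560 and 0.0316 FPKM. In 240 h ctrl it had 0.0572, 0.0578 and 0.0589 FPKM, and in 240 h kd 0.0318, 0.0390 and 0.0538 FPKM. The 48 h ctrl libraries lay above all others, with 47 to 70 reads against 20 to 36, and 240 h kd lay below 240 h ctrl.

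Atf3 was below the FPKM minimum, so its values are those of voom on recovered reads. On log2 FPKM with no minimum, or with a minimum of 10 reads, it was called in no comparison. Its log2 fold change in reads was -1.09 at 48 h, where voom called 9.22% of 16108 genes, and -1.07 in 72 h kd against 48 h ctrl, where it called 22.6% of 16146 genes. At 240 h it was -0.51 (SE 0.22, limma voom adjusted p = 0.0749), where 18.0% of 16633 genes were called. Between the untreated groups it was -0.73 (SE 0.17, limma voom adjusted p = 0.0126), lower in 240 h ctrl than in 48 h ctrl, where voom called 1.36% of 16215 genes. The 48 h and 72 h values of Atf3 share the 48 h ctrl libraries, which also lay above the other untreated group.

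**Figure D2:**
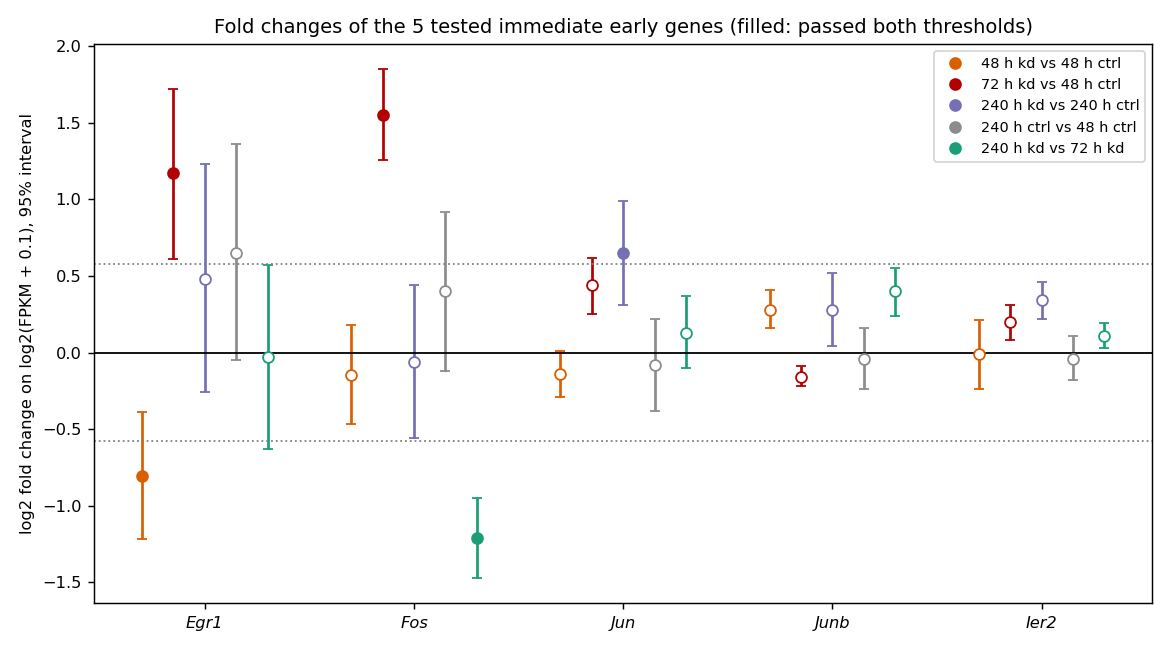
Log2 fold change on the scale log2(FPKM + 0.1) of the 5 immediate early genes tested, by comparison; whiskers are 95% confidence intervals of limma, filled points passed both thresholds, and dotted lines mark 0.58 in either direction. Fos passed at 72 h (1.55) and when 240 h kd was set against 72 h kd (-1.21), Jun passed at 240 h (0.65), and no gene passed between the untreated groups.

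Counts of members called follow, beside the same share over all genes tested. At 48 h, 1 of the 5 tested members was called (Egr1) and 3.99% of 11420 genes. In 72 h kd against 48 h ctrl, 2 of 5 were called (Egr1 and Fos) and 13.5% of 11440 genes. Between 48 h kd and 72 h kd, 2 of 5 were called, again Egr1 and Fos, and 7.45% of 11500 genes. These 3 comparisons chose the members or share their libraries, and nothing is read from these counts. In 240 h kd against 240 h ctrl, 1 of 5 was called (Jun) and 8.91% of 11401 genes. The median log2 fold change of the 5 members was -0.14 at 48 h, 0.44 in 72 h kd against 48 h ctrl and 0.34 at 240 h, against 0.01, 0.01 and 0.00 over all genes tested.

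At 240 h neither Egr1 nor Fos was called. Egr1 was 0.48 higher in 240 h kd than in 240 h ctrl (95% confidence interval -0.26 to 1.23, limma adjusted p = 0.269), and without library 3 of 240 h ctrl, which had 3.18 FPKM, the value was 0.16. Fos differed by -0.06 (95% confidence interval -0.56 to 0.44, limma adjusted p = 0.841). Set against 72 h kd, 240 h kd differed by -0.03 in Egr1, 0.13 in Jun, 0.40 in Junb and 0.11 in Ier2, so that of 5 tested members Fos alone was called, as were 15.7% of 11463 genes. The 72 h kd libraries were also in the comparison that chose the members.

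The untreated groups of 240 h and 48 h were compared as the background. No member was called between 240 h ctrl and 48 h ctrl by limma on log2 FPKM, where 0.475% of 11359 genes were called, and 0 of the 5 had an unadjusted p-value under 0.05, while 26.5% of all genes tested had one. The share of 0.475% stands for 54 genes, which were 2 to 10 when any 1 library was left out and 0 with a replicate block. Egr1 was 0.65 higher at 240 h (SE 0.29, 95% confidence interval -0.05 to 1.36, limma adjusted p = 0.215). Voom on recovered reads gave 0.66 for Egr1 (limma voom adjusted p = 0.045). It called 2 of 7 tested members, Egr1 and Atf3, and 1.36% of 16215 genes. Fos was 0.40 higher (limma adjusted p = 0.281), with 0.20 without library 1 of 240 h ctrl and 0.55 without library 3 of 240 h ctrl, and Jun, Junb and Ier2 differed by -0.08, -0.04 and -0.04. The 48 h ctrl libraries were also in the comparison that chose the members.

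The effect of the knockdown at 240 h minus that at 48 h was 1.29 (SE 0.37) for Egr1 and 0.79 (SE 0.16) for Jun, and both passed the thresholds, as did 5.82% of 11412 genes. It was 0.36 for Ier2, 0.08 for Fos and 0.00 for Junb, none called. The 48 h comparison used in choosing the members is part of this difference, so no p-value is given and nothing is read from its passing in either gene. The call of Egr1 was lost with a pseudocount of 1 (1.00), with no FPKM minimum, with a replicate block, and in 8 of the 12 fits that left out 1 library, over which the value was 0.97 to 1.50. The value of Jun passed in all 12 of those fits (0.70 to 0.92).

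Of 25 genes for SRF, its cofactors and the ERK pathway, 20 were tested on log2 FPKM and at most 1 was called in each knockdown comparison, where 3.99% (48 h), 13.5% (72 h kd against 48 h ctrl) and 8.91% (240 h) of all genes tested were called. At 48 h neither limma nor voom called any. With limma, 8, 14 and 9 of the 20 had an unadjusted p-value under 0.05 at 48 h, 72 h and 240 h, as had 31.9%, 60.8% and 44.9% of all genes tested. Voom tested all 25 and called 2 at 72 h, Rps6ka1, higher, and Elk3, lower, where it called 22.6% of all genes, and at 240 h it called 1, Mapk3, lower, where it called 18.0%. Rps6ka1, a ribosomal S6 kinase activated by ERK, rose by 0.70 (SE 0.04) in 72 h kd, from 5.10 to 8.36 FPKM, and its span overlaps 3 other genes. Mapk3, which encodes ERK1, fell by 0.91 (SE 0.05, limma adjusted p = 0.000161) at 240 h, from 13.6 to 7.22 FPKM, and had -0.40 and -0.44 at 48 h and 72 h. The medians of this list were -0.01, -0.07 and -0.05 in the knockdown comparisons at 48 h, 72 h and 240 h.

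Nab2, a co-repressor that binds EGR1 and is itself an EGR1 target, was the only tested gene of 4 further EGR and NAB genes. It rose by 0.60 (SE 0.08) at 48 h, from 1.63 to 2.52 FPKM, while Egr1 was lower. It had 0.50 at 72 h and -0.28 at 240 h (limma adjusted p = 0.23), neither called. Nab2 was called lower in 240 h kd than in 72 h kd (-0.59, SE 0.10), and its effect at 240 h minus that at 48 h was -0.88 (SE 0.19), also called. Its span overlaps Stat6, Nemp1 and Gm16229. Of 14 other AP-1 genes, 6 were tested and none was called by limma on log2 FPKM in any comparison, while 4, 4 and 3 had an unadjusted p-value under 0.05 at 48 h, 72 h and 240 h, against the same 31.9%, 60.8% and 44.9% of all genes. Voom called Jdp2, lower at 48 h, Fosl2, lower at 72 h, and at 240 h Jdp2, lower, and Fosl1, higher. It tested 11, 11 and 12 genes of the list at these times, and called 9.22%, 22.6% and 18.0% of all genes.

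Changes in a wider list of early response genes were counted in the same fits. Of 48 other immediate early and early response genes, 42 were tested. At 48 h, 5 rose (Myc, Arc, Pim1, Dusp2 and Plk3) and 3 fell (Ier5, Trib1 and Dusp4), with a list median of 0.01. Over all genes tested at 48 h, 1.99% rose and 2.01% fell. After rescaling to TPM, 3 rose and 3 fell at 48 h, with a median of -0.03. Against 48 h ctrl, 11 rose and 2 fell in 72 h kd (Trib1 and Ier3), with a median of 0.23, while 8.23% of all genes tested rose and 5.30% fell. At 240 h, 14 rose and 6 fell, with a median of 0.29 against 0.00 over all genes tested, of which 4.79% rose and 4.12% fell. Without library 2 of 48 h kd, 5 rose and 2 fell at 48 h, and 7 were called in both fits. Without library 3 of 240 h ctrl, 15 rose and 6 fell at 240 h, and 20 were called in both fits. Between the untreated groups limma and voom called none of the list, while they called 0.475% and 1.36% of all genes, in that order. There 12 of the 42 and 26.5% of all genes had an unadjusted p-value under 0.05 with limma, and the list median was -0.02. The list was written with earlier results of these data known, and the medians are a description.

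The 5 DUSP genes of the list, which encode phosphatases that switch off MAP kinases, differed in direction. Dusp2 rose at all times, by 0.82 (SE 0.11) at 48 h, 1.60 (SE 0.11) at 72 h and 1.30 (SE 0.21) at 240 h, with group means of 0.475 FPKM in 48 h ctrl and 1.63 FPKM in 72 h kd. Its reads per library were few, 10 to 14 in 48 h ctrl, 23 in 48 h kd and 43 to 49 in 72 h kd. Dusp6, a phosphatase specific for ERK, rose by 0.98 (SE 0.11) at 240 h, from 13.5 to 26.8 FPKM, and had 0.39 and 0.17 at 48 h and 72 h. Dusp5 rose by 0.78 at 72 h and 0.71 at 240 h. Dusp4 fell by 0.90 (SE 0.10) at 48 h, from 2.25 to 1.16 FPKM, and had 0.17 at 240 h. Dusp1 was below the FPKM minimum at 48 h and 240 h, where voom called it lower, with 0.593 FPKM in 48 h ctrl and 0.375 FPKM in 48 h kd, and 0.474 FPKM in 240 h ctrl and 0.272 FPKM in 240 h kd. In 72 h kd Dusp1 had 0.619 FPKM and was tested on log2 FPKM, with a value of 0.05 that was not called.

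Myc, the transcription factor of cell growth, rose by 1.07 (SE 0.05) at 48 h, from 11.4 to 24.1 FPKM, had -0.16 in 72 h kd and rose by 0.95 (SE 0.07) at 240 h. Pim1, a survival kinase, rose by 0.60 at 48 h, 1.50 (SE 0.04) at 72 h and 0.72 at 240 h, with 25.1 FPKM in 48 h ctrl and 71.0 FPKM in 72 h kd. Trib1, a pseudokinase, fell by 0.66 at 48 h and 1.10 (SE 0.11) at 72 h, from 3.05 to 1.37 FPKM. Its value at 240 h was -0.39, below the fold threshold.

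At 240 h the largest rise of the list was Gadd45g, a growth arrest gene, by 1.84 (SE 0.32, limma adjusted p = 0.00864), from 0.859 to 3.20 FPKM. Ccn1, a secreted matrix protein and SRF target, rose by 1.29 (SE 0.08), from 3.53 to 8.78 FPKM. Plk3, Plk2, Rhob and Gadd45a rose by 0.81, 0.80, 0.78 and 0.78, in that order. Cebpd and Tiparp rose by 0.77 each, and Zfp36 by 0.61. The 6 genes that fell were Rnd3, by 0.99, Sgk1 and Nfkbia, by 0.77 each, Pim3, by 0.75, Tob1, by 0.69, and Zfp36l2, by 0.68. The spans of Cebpd, Dusp5, Gadd45a, Pim1, Plk3, Tiparp, Zfp36 and Zfp36l2 each overlap 1 other gene.

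**Figure D3:**
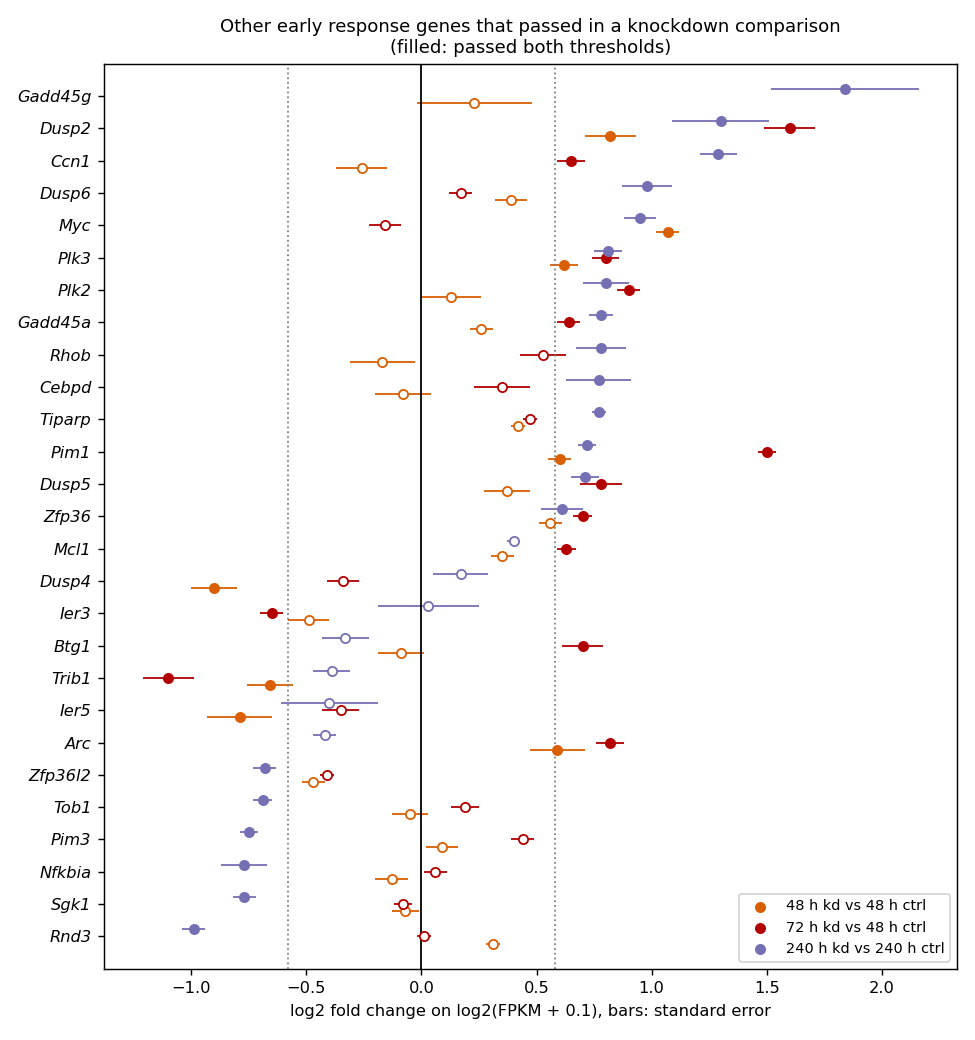
Log2 fold change on the scale log2(FPKM + 0.1) of the 27 other early response genes that passed in at least 1 of the knockdown comparisons at 48 h, 72 h and 240 h; whiskers are the standard error, filled points passed both thresholds and genes are ordered by their 240 h value. Dusp2, Pim1 and Plk3 are filled at all times, Myc at 48 h and 240 h, and Btg1, Mcl1, Trib1, Ier3, Arc, Dusp4 and Ier5 have no filled point at 240 h.

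Markers of stress and of other cells were measured beside these values. Of 13 heat shock genes, 12 were tested, and in the knockdown comparisons Hspa1b alone was called, at 72 h, where it fell by 1.04 (SE 0.07), from 1.12 to 0.492 FPKM. Its near-identical copy Hspa1a makes this value uncertain. At 72 h, where 13.5% of all genes were called, 11 of the 12 had an unadjusted p-value under 0.05, 9 of them lower, while 60.8% of all genes had one. Hsph1 had -0.55, Hspa8 -0.44 and Hsp90aa1 -0.40, below the fold threshold. The list median was -0.10, -0.27 and 0.12 at 48 h, 72 h and 240 h. Of 5 ESC markers none was called at 48 h or 72 h, although 4 had an unadjusted p-value under 0.05 at 48 h, all lower, while 31.9% of all genes had one in either direction. Sox2 had -0.35 and Zfp42 -0.33 at 48 h, below the fold threshold. At 240 h Esrrb fell by 0.78 (SE 0.03) and Zfp42 by 0.58 (SE 0.04), where 8.91% of all genes were called. Of 6 fibroblast markers, 2 were tested at 240 h, with a median of 0.53. Col1a1 rose by 1.50 (SE 0.11), from 0.261 to 0.923 FPKM, and Thy1 had -0.43 (SE 0.09), from 0.646 to 0.452 FPKM, below the fold threshold. Voom, which called 9.22% of all genes at 48 h, 22.6% at 72 h, 18.0% at 240 h and 1.36% between the untreated groups, called Col1a1 higher and Thy1 lower at 48 h and at 72 h, Col1a1 and Col1a2 higher at 240 h, and Col1a1 higher in 240 h ctrl than in 48 h ctrl. The fibroblast list summed to 0.859 to 0.976 FPKM in 240 h ctrl, where Lum was at 0 in every library, and to 1.36 to 1.58 FPKM in 240 h kd. The 5 primitive endoderm markers summed to 0.555 to 0.589 FPKM in 48 h ctrl, 0.198 to 0.247 FPKM in 48 h kd, 0.129 to 0.207 FPKM in 72 h kd, 0.738 to 0.803 FPKM in 240 h ctrl and 0.510 to 0.620 FPKM in 240 h kd. Of them voom called Sox7 lower at 48 h, 72 h and 240 h, and Gata6 higher at 240 h. The 5 mesoderm markers summed to 0.624 to 1.22 FPKM, and voom called Eomes lower at 48 h and 240 h and Mixl1 higher at 240 h. In bulk RNA, fewer cells of a type and less RNA per cell cannot be told apart, and the part of these markers in the values of Jun or the early response genes was not tested.

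Genes with a pattern like that of Egr1 over the 15 libraries were ranked by Pearson's r of log2(FPKM + 0.1) among the 9153 genes that averaged 0.5 FPKM or more, members and predicted genes left out. Among the highest 8 were Samd4b (0.911), Ints1 (0.899), Sel1l (0.889), Map3k3 (0.886), Upf1 (0.876), Myh9 (0.869) and Pip5k1c (0.868). Their ranges were narrow, as in Samd4b with group means of 1.26 FPKM in 48 h kd and 1.55 FPKM in 72 h kd. Among the members, r with Egr1 was 0.80 for Fosb, 0.73 for Jun, 0.70 for Fos, 0.57 for Ier2, -0.21 for Atf3 and -0.33 for Junb, with Egr2 left out as it had reads in 1 library. The 15 points share 5 groups and a common cell line, so these values are descriptions and carry no test.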

How the data were processed

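RNA-seq of 15 libraries was used, in groups and replicate numbers taken from the labels. Per the submitters' processing notes and the study's methods, the authors aligned single-end reads to mm10 (GRCm38.p6) with STAR 2.7.0c, made gene counts in R 4.0.3 and ran DESeq2 1.30.0 on them. What they deposited is FPKM per gene and library, with coordinates, which are used unchanged. The gene annotation behind the counts is not given in the sources used here, and 53297 genes (96.5%) matched GENCODE M21 in position and symbol. A later GENCODE release, which the study names for its ChIP-seq peaks, was not used here. Multiplying the values by gene span and 1 total per library gave whole reads, with a tolerance of 0.001, for 100% of the values above 0. Summed over genes, the reads were 7.38% to 8.34% above the totals, and the cause of this was not tested. Chi-square per degree of freedom between replicates was 1.3 to 11.3 over the 15 pairs within groups, above the 1 of counting noise, so none were merged.

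The test was limma 3.58.1 in R 4.3.3 (trend in the prior variance, two-sided, Benjamini-Hochberg adjustment over all genes tested) on log2(FPKM + 0.1), where the mean over the libraries compared reached 0.5 FPKM, each comparison in a fit of its own groups. The thresholds (0.05 and 0.58) are those of the study. Limma voom was run on recovered reads where their mean reached 10. Exact permutation of 3 against 3 libraries was not used, as its smallest two-sided p-value is 0.1. Named genes are the 8 members, Smarcb1, listed genes called at 240 h, up to 4 per list with the largest change among those called at 48 h or 72 h, and the 8 genes most like Egr1. A gene selected by this rule is not reported. Genes of a list with 5 or fewer calls in a direction, and genes called by voom alone, were named after their values were seen. Btg1, Mcl1, Ier3, Arc, Dusp4, Thy1, Sox2, Hsph1, Hspa8 and Hsp90aa1 were also named after their values were seen. The members and lists were chosen with earlier results of these data known. The counts of early response genes without a library that stood apart were added after the data were seen.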

Additional observations from a re-analysis of the deposited data

Results flagged for a closer look

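In the interaction term over 12 libraries, the effect of knockdown at 240 h exceeded that at 48 h by 1.29 (SE 0.37) for Egr1 and by 0.79 (SE 0.16) for Jun. Egr1 had -0.81 at 48 h and 0.48 at 240 h, and Jun had -0.14 and 0.65. Both values were set apart because the difference between times passed the thresholds. The 48 h comparison used in choosing the members is part of it, so that passing supports nothing for either gene. The call of Egr1 was lost in 8 of the 12 fits that left out 1 library, and that of Jun in 0. The groups hold 3 libraries each, too few to test single libraries as outliers.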

How the results depend on the processing

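Fos in 72 h kd against 48 h ctrl and the interaction of Jun (0.62 to 0.92) passed in every alternative in which they were tested. Both include a comparison used in choosing the members, so nothing is read from that passing. The count of members called at 48 h was 0 with no FPKM minimum, and 2 with voom on recovered reads (Egr1 and Atf3). In 72 h kd it was 1 against 48 h ctrl with a minimum of 2 FPKM or with 240 h ctrl as the control, and 1 against 48 h kd with a minimum of 2 FPKM, which Fos could not pass. With voom it was 3 against 48 h ctrl (Egr1, Fos and Atf3) and 3 against 48 h kd (Egr1, Fos and Jun), where leaving out a library gave 2 to 3. At 240 h it was 0 with a pseudocount of 1. From 72 h kd to 240 h kd it was 0 with a minimum of 2 FPKM, and between untreated groups it was 2 with voom. For the interaction it was 1 (Jun) with a pseudocount of 1 or no minimum. Leaving out each library gave 0 to 1 at 48 h, 0 to 1 at 240 h and 1 to 2 for the interaction. Over all genes the count called was 208 with a pseudocount of 1, 208 with a minimum of 2 FPKM, 720 with 10 reads and 1485 with voom at 48 h, against 456. In 72 h kd against 48 h ctrl it was 745 with a pseudocount of 1, 2500 with no minimum, 768 with 2 FPKM and 3642 with voom, against 1548. In 72 h kd against 48 h kd it was 365 with a pseudocount of 1, 407 with 2 FPKM and 2101 with voom, against 857. At 240 h it was 541 with a pseudocount of 1, 1768 with no minimum, 453 with 2 FPKM, 1656 with 10 reads and 2998 with voom, against 1016. Between untreated groups it was 27 with a pseudocount of 1, 32 with 2 FPKM, 168 after rescaling to TPM, 100 in 1 fit of 15 libraries, 31 with no trend and 220 with voom, against 54, and 2 to 10 when a library was left out. From 72 h kd to 240 h kd it was 882 with a pseudocount of 1, 2841 with no minimum, 888 with 2 FPKM and 4201 with voom, against 1803. For the interaction it was 333 with a pseudocount of 1, 1051 with no minimum, 324 with 2 FPKM, 1123 with 10 reads and 1708 with voom, against 664. Rescaling to TPM moved the share of calls that were higher from 55.9% to 67.9% in 72 h kd against 48 h kd, from 74.1% to 91.1% between untreated groups and from 40.9% to 53.9% in 240 h kd against 72 h kd. The causes were not tested.

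Values close to 0 changed sign when a library was left out, with ranges of -0.21 to 0.14 for Fos at 240 h, -0.21 to 0.01 for Jun and -0.12 to 0.04 for Junb between untreated groups, -0.16 to 0.21 for Egr1 from 72 h kd to 240 h kd, and -0.06 to 0.29 for Fos and -0.08 to 0.08 for Junb in the interaction. For Ier2 at 48 h the range was -0.06 to 0.08. Ier2 at 48 h was 0.03 after quantile normalization. Between untreated groups, TPM gave 0.03 for Jun, 0.07 for Junb and 0.07 for Ier2, and quantile normalization 0.00 for Junb and 0.08 for Ier2. From 72 h kd to 240 h kd, Egr1 was 0.05 with TPM. In the interaction, Junb was 0.03 with TPM, 0.01 with median centring and 0.00 with voom. Of the values of single members, 602 kept direction and side of the threshold, 26 changed sign, 24 no longer passed and 6 newly passed.

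No pairing by replicate number was seen, as the deviations of libraries of 1 number had correlations of -0.1 to 0.12 over 18 pairs, with 1 pair above 0.1. With 3 libraries per group, some of which stood apart, these correlations cannot exclude a pairing. With the replicate number as a block, the count of members called was 0 at 48 h, where Egr1 had the same value of -0.81 and did not pass, and 1 for the interaction (Jun). The count over all genes was 285 at 48 h and 0 between untreated groups, and the block changed no other call of a member. Fos had 26 to 122 reads per library, Atf3 20 to 70 and Fosb 5 to 18, which limits what could be seen in them.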
